A study of Homo sapiens with 36 samples.

Results

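The very long genes are the protein-coding genes on autosomes whose genomic span, the distance from the first to the last base of the gene in GENCODE release 29, is at least 500 kb, and whose mean over the 6 RNA libraries of 6 h is at least 100 counts. There were 154 such genes, of 302 autosomal protein-coding genes of at least 500 kb in the deposited tables. The other 148 had fewer counts and were left out. In all, 12014 autosomal protein-coding genes passed the same count minimum, of 58219 gene identifiers in the RNA tables. The members were chosen by the annotated span and by the mean 6 h count over both treatments. The group was proposed with earlier results of these data known, so its directions are given as a description.

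Actinomycin D (actD) is a drug that slides between the bases of DNA, mainly where a G is followed by a C, and stops RNA polymerases as they move along the template. At low doses it is best known for acting on RNA polymerase I, which makes ribosomal RNA. RNA polymerase II must cross the whole span of a gene, introns included, to make a transcript, so a very long gene takes hours to transcribe. Genes of this size are mostly intron, and many encode adhesion molecules, channels, scaffolds and signalling proteins that are familiar from neurons and from developing organs. Several lie at common fragile sites, regions of late replication that break under replication stress.

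The cells were WiT49, a single line from an anaplastic Wilms tumor, the embryonal kidney tumor of childhood that is treated with actD. All groups were grown in the same medium. The treated groups received 2 nM actD and the controls DMSO, the solvent, for 6 h, for 72 h, or for 2 weeks. The 2-week schedule was 2 rounds of 7 days, in which 3 days with the additive were followed by 4 days without. There were 12 groups of 3 libraries, of total RNA or of ribosome footprints, which are the pieces of messenger RNA that translating ribosomes cover. The RNA libraries of 2 weeks have a title with 1 treatment and a library name with the other. They are called named actd and named dmso here, and every 2-week RNA difference is named actd minus named dmso, so its sign turns if the titles are right.

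The members had a median span of 685 kb, from 501 kb to 2305 kb, and lay on 21 chromosomes. Exons covered a median of 1.56% of the span, against 15.9% in the other 11860 genes past the count minimum. The median exonic length was 11193 bases, against 5196 bases in those other genes. Of the 154, 117 had a principal isoform, the transcript that GENCODE tags as the main protein-coding one, that itself spanned at least 500 kb.

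The promoters of these genes had a GC content close to that of other genes, with fewer CG steps, and a smaller share of them held a GC box. RefSeq promoter windows (GRCh38.p14, 250 bases before to 50 after the start) were found for 132 of the members. Their median GC content was 65.7%, against 66.0% for 9342 other genes past the count minimum, and the step GC (a G followed by a C, the preferred place of the drug) had a median of 33 in both. The step CG, a C followed by a G, had a median of 23 in the members and 27 in the other genes. The GC box GGGCGG, searched with its reverse complement CCGCCC and counting overlapping matches, stood in 56.8% of the members' windows, in 72.3% of those of the other genes and in 45.0% of all 35116 windows in the table. Windows are printed for 3 genes chosen after their values were seen: GMDS and PRKCA, which had less RNA in every actD library at 72 h, and PCDH9, which had more. All 3 windows are rich in G and C, and capitals mark the GC box on either strand. Their GC contents do not stand for the groups. The median was 67.0% in 53 members lower without overlap at 72 h and 65.3% in the 79 other members with a window. In the same order, the median of CG steps was 29 and 22, and a GC box stood in 64.2% and 51.9%. Whether the promoter goes with the differences was not tested. The window of GMDS is chr6:2245556-2245855 (minus strand), with a GC content of 79.3%. That of PRKCA is chr17:66302363-66302662 (plus strand), with 81.3%, and that of PCDH9 is chr13:67230287-67230586 (minus strand), with 65.7%.
GMDS: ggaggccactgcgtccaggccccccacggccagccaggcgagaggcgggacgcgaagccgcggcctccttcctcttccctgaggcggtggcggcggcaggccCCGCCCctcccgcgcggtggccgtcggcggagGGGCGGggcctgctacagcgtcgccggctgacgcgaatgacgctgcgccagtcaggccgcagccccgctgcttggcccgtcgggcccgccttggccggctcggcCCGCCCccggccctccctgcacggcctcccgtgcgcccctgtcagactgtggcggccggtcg
PRKCA: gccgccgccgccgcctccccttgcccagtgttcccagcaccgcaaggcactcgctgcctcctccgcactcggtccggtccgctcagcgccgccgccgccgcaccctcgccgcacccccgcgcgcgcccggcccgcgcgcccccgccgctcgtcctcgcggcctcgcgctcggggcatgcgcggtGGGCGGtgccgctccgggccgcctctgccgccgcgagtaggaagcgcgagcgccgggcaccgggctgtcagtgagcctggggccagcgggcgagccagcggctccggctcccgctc
PCDH9: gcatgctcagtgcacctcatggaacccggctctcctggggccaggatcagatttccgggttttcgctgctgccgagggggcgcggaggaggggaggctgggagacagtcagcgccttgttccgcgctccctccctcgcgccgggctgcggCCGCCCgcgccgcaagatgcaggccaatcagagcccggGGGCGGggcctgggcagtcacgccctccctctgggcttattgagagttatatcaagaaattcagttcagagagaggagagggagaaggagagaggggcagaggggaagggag

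The RNA libraries held 40221994 to 69240041 counts and the footprint libraries 152556 to 1281039. No member had a 0 in any RNA library, and the lowest single value was 3 counts. Among markers of blastema and nephron progenitors, WT1, NCAM1 and LIN28B reached 1 CPM (the count at a common library size, scaled by TMM) in every vehicle library, and SIX2, EYA1, PAX2, PAX8, SALL1 and CITED1 stayed under 1 CPM in every RNA library. PTPRC, PECAM1 and ALB, markers of cells that the culture should lack, were under 1 CPM throughout. At 72 h, actD replicate 3 stood apart from actD replicates 1 and 2 in the members, and most medians of that time are given with and without it. Leaving it out gave the most negative median of the members among all omissions of a single library at 72 h. Mitochondrial ribosomal RNA took 24.6% to 32.3% of counts in the actD libraries of 72 h, lowest in replicate 3, against 15.5% to 22.5% in DMSO. The same share was 25.8% to 31.2% in the 2-week libraries named actd, against 19.6% to 22.9% in those named dmso, and the part of this shift in the members' values was not tested.

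At 72 h most very long genes had less RNA in actD than in DMSO. The median log2 difference of the 154 members was -0.72, a 0.608-fold level, while the median of all 21195 genes tested was 0.02. The members ranged from -2.63 (KIF26B) to 1.39 (RGS7), and 131 of them lay below 0, or 85.1%, against 48.6% of all tested genes. In 63 members all 3 actD libraries lay below all 3 DMSO libraries, which was so for 10.3% of all tested genes. In 1 member all 3 lay above, against 10.5% of all tested genes. All levels are scaled by TMM within the libraries of a time, so less and more RNA are relative to the other genes. A change in the total RNA of the cells was not measured. In these bulk samples fewer cells of a type and less RNA per cell cannot be told apart.

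No member passed an adjusted p of 0.05 in the edgeR quasi-likelihood test on the 6 libraries of 72 h, in which 0.00472% of all tested genes were called, a single gene. The lowest adjusted p of a member was 0.174, for TRAPPC9. At an unadjusted p under 0.05, 63 members were lower and 1 was higher, against 7.78% and 5.27% of all tested genes. When the spread between replicates was estimated by edgeR over all 18 RNA libraries, 50 members were called lower and none higher at 72 h, or 32.5% of them, against 3.61% of all 24803 genes in that fit called lower and 1.27% called higher. That fit was not rerun without single libraries. It uses 1 spread per gene for all 3 times, and the 72 h libraries differed most among themselves. The pooled SD of the members' library medians was 0.31 at 72 h, 0.066 at 6 h and 0.050 at 2 weeks. Its p-values at 72 h may therefore be too small. It called 0 members at 6 h and at 2 weeks. There 11 and 21 members were lower at an unadjusted p under 0.05, against 2.31% and 2.84% of all genes in that fit. DESeq2 on the 6 libraries called 30 members lower and none higher, against 2.26% and 0.599% of all tested genes. The labels do not say that replicates were separate cultures, so the p-values measure the spread between these libraries, which may be technical.

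The actD libraries of 72 h differed among themselves. Relative to the mean of the DMSO libraries, the median member stood at -0.94 in actD replicate 1, at -0.90 in replicate 2 and at -0.23 in replicate 3, on the log2 scale of CPM plus 0.5. The DMSO libraries stood at -0.08, -0.12 and 0.23. Genes of 200 to 500 kb stood at -0.59, -0.58 and -0.05 in actD replicates 1, 2 and 3, so the split was not limited to the members. The members' share of all counts on autosomal coding genes was 0.460%, 0.465% and 0.535% in DMSO and 0.278%, 0.283% and 0.503% in actD. Replicate 3 thus lay within the DMSO range by this share, and its median member lay below all DMSO libraries. Without actD replicate 3 the members' median difference was -1.09, 143 of 154 lay below 0, against 49.1% of all tested genes, and 100 were lower at an unadjusted p under 0.05, against 9.33% of all tested genes, while none was called by edgeR after adjustment. Without replicate 1 or replicate 2 in its place, 39 and 40 members passed that unadjusted threshold on the lower side, against 4.44% and 4.45% of all tested genes. The members' median was then -0.60 and -0.58. Without DMSO replicate 3, the highest of the DMSO libraries, it was -0.62.

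**Figure D1:**
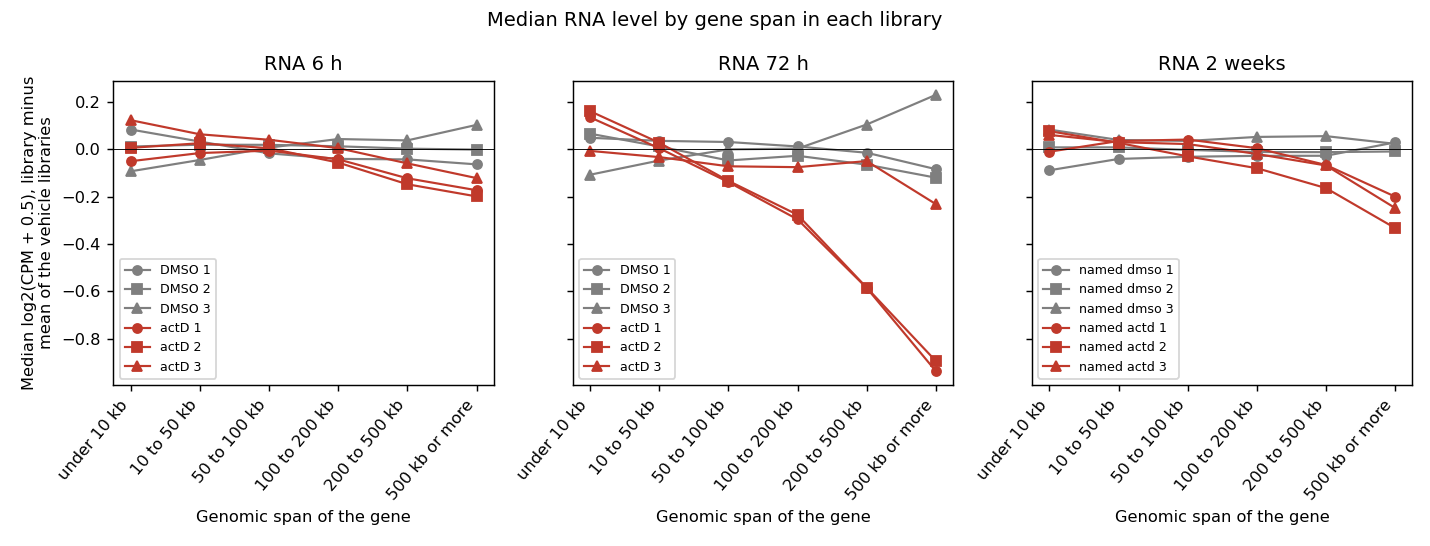
Median RNA level by class of gene span, one line per library, as log2(CPM + 0.5) minus the mean of the vehicle libraries of the same time, for autosomal protein-coding genes past the count minimum. At 72 h the lines of actD replicates 1 and 2 descend to -0.94 and -0.90 in the class of 500 kb or more, and that of replicate 3 to -0.23. The 2-week panel follows the library names, which the titles contradict.

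The very long genes were the end of a graded series. At 72 h the median log2 difference was 0.09 in 2195 genes under 10 kb, -0.02 from 10 to 50 kb, -0.13 from 50 to 100 kb, -0.24 from 100 to 200 kb, -0.42 in 765 genes from 200 to 500 kb and -0.72 in the 154 members. The share called in either direction in the fit over 18 libraries went from 4.65% in the shortest class to 19.6% from 200 to 500 kb and 32.5% in the members. At 6 h the shortest class and the members stood at 0.03 and -0.18, and at 2 weeks at 0.03 and -0.28. Without actD replicate 3 the 72 h medians were 0.11, -0.65 and -1.09 in the shortest class, the class of 200 to 500 kb and the members. The difference with span was also seen among genes of like exonic length: with 10 to 20 kb of exons, the 72 h median was -0.01 in 280 genes of 10 to 50 kb, -0.40 in 262 genes of 200 to 500 kb and -0.72 in 81 members. With 20 kb or more of exons there was no further step at 500 kb. The median there was 0.03 in 29 genes of 100 to 200 kb, -0.33 in 53 genes of 200 to 500 kb and -0.34 in 14 members. Over the 11983 genes past the count minimum that were tested at 72 h, Spearman's rho between span and the 72 h difference was -0.31, as a description across genes of the same libraries. The number of exon blocks, the separate stretches left when overlapping exons are merged, had a rho of -0.32 over the same genes. At 6 h rho was -0.13 for span and -0.27 for exon blocks, and at 2 weeks -0.15 and -0.27. Which of these properties the differences follow was not tested.

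Within the members, the annotated span itself ordered the 72 h differences little (rho 0.02 over 154 genes). The span of the principal isoform separated them more. The 117 members whose principal isoform spans at least 500 kb had a median of -0.81. Of these, 46 were called lower in the fit over 18 libraries, against 3.61% of all genes in that fit. In the 37 whose principal isoform is shorter the median was -0.31, and 4 were called lower. In 12 members with a principal isoform under 300 kb the median was -0.26, and none was called. Without actD replicate 3 these 3 medians were -1.24, -0.74 and -0.57. Which isoforms the cells used was not measured. Exonic length ran the other way: 17 members with under 6 kb of exons had a median of -1.07 and 14 with 20 kb or more had -0.34. Without actD replicate 3 these medians were -1.45 and -0.59.

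**Figure D2:**
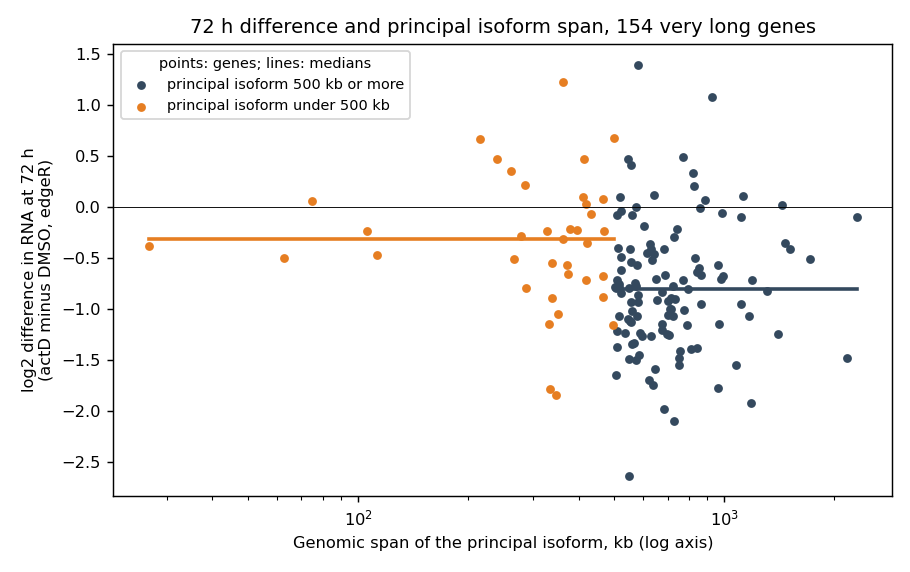
The log2 difference in RNA at 72 h (actD minus DMSO, edgeR) of each of the 154 very long genes against the genomic span of its principal isoform on a log axis, with the median of each class as a line. The 117 genes with a principal isoform of at least 500 kb have a median of -0.81 and the 37 others -0.31.

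Cytoskeletal and scaffold proteins formed a group of 19 members, 17 of them below 0 at 72 h, with a median of -0.74 and 5 called lower in the fit over 18 libraries. Beside this and every role group below stand 85.1% of all members and 48.6% of all tested genes below 0. The fit over 18 libraries called 32.5% of the members and 3.61% of all its genes lower. KIF26B, an unconventional kinesin known from kidney development, lies on chromosome 1 from 245154985 to 245709431 (GRCh38). It had 38.0, 24.2 and 7.60 CPM in the DMSO libraries and 3.14, 3.37 and 4.74 CPM in the actD libraries of 72 h. All actD libraries lay below all DMSO libraries, although DMSO replicate 3 came close to them. The log2 difference was -2.63 ± 0.55 (SE, n = 3 against 3), with an edgeR adjusted p of 0.228 on the 6 libraries and 0.00169 in the fit over 18. ANK2, the ankyrin that ties membrane proteins to the spectrin skeleton, had 6.76, 11.3 and 12.3 CPM in DMSO and 2.63, 2.79 and 3.40 CPM in actD. Its 3 actD libraries were close together and all under the lowest DMSO library, and the difference was -1.78 ± 0.30 (edgeR adjusted p 0.19 on 6 libraries, 0.000291 over 18). DLG2, a synaptic and junctional scaffold, is among the 3 longest members at 2173 kb and stood at -1.48. PARD3, a core protein of cell polarity, stood at -1.26.

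Proteins of vesicle trafficking made up 12 members, all 12 below 0 at 72 h, with a median of -1.25 and 7 called lower in the fit over 18 libraries. TRAPPC9, a subunit of a complex that tethers vesicles at the Golgi, had 4.83, 5.66 and 8.47 CPM in DMSO and 1.55, 1.63 and 1.24 CPM in actD. This gene was low in all 3 actD libraries alike, replicate 3 included, and the difference was -2.10 ± 0.31 (edgeR adjusted p 0.174 on 6 libraries, 0.000109 over 18). LRBA, a large protein of endosomal sorting, stood at -1.48 and EXOC4, a subunit of the exocyst that docks vesicles at the plasma membrane, at -1.40, both called over 18 libraries. The weakest differences of the group were those of NBEA at -0.29 and RIMS1 at -0.40.

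The metabolic, glycosylation, ubiquitin and mitochondrial enzymes were 11 members, all 11 below 0 at 72 h, with a median of -1.24 and 8 called lower over 18 libraries. GMDS, which makes the precursor of GDP-fucose for glycosylation, had 3.04, 3.38 and 4.27 CPM in DMSO and 0.804, 0.925 and 1.57 CPM in actD. Its groups did not overlap, and the difference was -1.70 ± 0.35 (edgeR adjusted p 0.225 on 6 libraries, 0.00215 over 18). DPYD, the first enzyme of pyrimidine breakdown, stood at -1.38, and CDKAL1, a modifier of transfer RNA, at -1.24. WWOX, an oxidoreductase at a common fragile site, stood at -0.96. DPYD, CDKAL1 and WWOX were each called lower over 18 libraries.

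Adhesion molecules and receptors were 19 members, 16 of them below 0, with a median of -0.68 and 5 called lower over 18 libraries. GPC6, a glypican that carries heparan sulfate on the cell surface, had 56.0, 45.3 and 90.4 CPM in DMSO and 7.55, 7.18 and 35.9 CPM in actD. The actD libraries lay below DMSO without overlap, with replicate 3 about midway, and the difference was -1.92 ± 0.65 (edgeR adjusted p 0.312 on 6 libraries, 0.0244 over 18) and -3.12 without replicate 3. CNTN4, a contactin of the immunoglobulin family, had 3.66, 3.12 and 5.71 CPM in DMSO and 0.608, 0.684 and 2.34 CPM in actD. Here too replicate 3 was the highest of the actD libraries, and the difference was -1.78 ± 0.57 (edgeR adjusted p 0.293 on 6 libraries, 0.0188 over 18), or -2.69 without replicate 3.

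SLIT3, THSD4 and DLGAP1 belong to no role list. SLIT3, a secreted ligand of ROBO receptors, had 35.9, 41.6 and 77.7 CPM in DMSO and 9.54, 10.3 and 26.5 CPM in actD, a difference of -1.74 ± 0.48. THSD4, a protein of the extracellular matrix, had 2.56, 2.50 and 5.69 CPM in DMSO and 0.863, 0.740 and 1.12 CPM in actD, a difference of -1.98 ± 0.42. DLGAP1, a partner of synaptic scaffolds, had 0.641, 0.907 and 1.12 CPM in DMSO and 0.0981, 0.259 and 0.378 CPM in actD, a difference of -1.85 ± 0.50. The groups did not overlap in any of these 3 genes, and the edgeR adjusted p over 18 libraries was 0.00891, 0.00355 and 0.0245.

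Signalling enzymes, kinases and regulators of small GTPases were 15 members, 13 below 0, with a median of -0.80 and 5 called lower over 18 libraries. PRKCA, the alpha isoform of protein kinase C, had 28.2, 26.3 and 44.0 CPM in DMSO and 7.34, 6.58 and 17.6 CPM in actD, without overlap. Its difference was -1.64 ± 0.43 (edgeR adjusted p 0.263 on 6 libraries, 0.00563 over 18). Transcription, chromatin, RNA and DNA repair genes were 16 members with a median of -0.46, 14 below 0 and 2 called lower over 18 libraries, SUPT3H at -1.49 and SMYD3 at -1.42. Channels, transporters and calcium-handling genes were 7 members with a median of -0.23, 5 below 0 and 2 called lower, the potassium channel gene KCNMA1 at -1.55 and the calcium release channel gene RYR2 at -1.15. Without actD replicate 3 the 72 h medians were -1.81 for trafficking, -1.49 for the enzymes, -1.37 for adhesion molecules and receptors and -1.09 for signalling. They were -0.93 for scaffolds, -0.71 for transcription, chromatin, RNA and DNA repair and -0.53 for channels. The order of the groups thus depended on that library, and whether they differ from each other was not tested. The 55 members in no role list had a median of -0.60, and 16 were called lower.

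**Figure D3:**
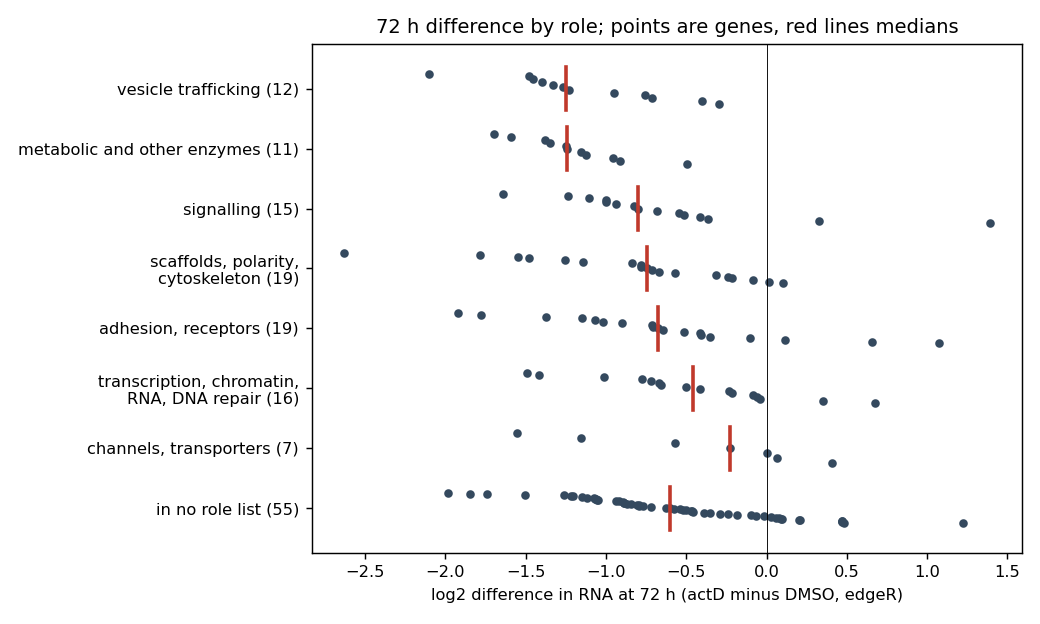
The log2 difference in RNA at 72 h (actD minus DMSO, edgeR) of each very long gene, by role list, with the number of genes in brackets and the median as a red line. All 12 vesicle trafficking genes and all 11 metabolic and other enzymes lie below 0, with medians of -1.25 and -1.24.

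PCDH9 was the member that lay higher without overlap. This protocadherin, a cell adhesion protein, had 38.0, 33.5 and 17.6 CPM in DMSO and 43.4, 39.4 and 105 CPM in actD at 72 h. Replicates 1 and 2 were only slightly above DMSO and replicate 3 far above it. The difference was 1.08 ± 0.45 (edgeR adjusted p 0.371 on 6 libraries, 0.0811 over 18), and 0.47 without replicate 3. RGS7, a regulator of G protein signalling, had the highest difference of all members and likewise took it from replicate 3. It had 2.59, 1.55 and 4.30 CPM in DMSO and 3.14, 2.61 and 16.5 CPM in actD, so the groups overlapped, and the difference went from 1.39 to 0.02 without replicate 3.

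The 3 members with the highest counts at 6 h overlapped between the groups at 72 h. DLC1, a GTPase-activating protein, had 80.6, 83.1 and 89.5 CPM in DMSO and 46.9, 49.7 and 145 CPM in actD. Replicates 1 and 2 lay below DMSO and replicate 3 above it, and the difference was -0.07, or -0.81 without replicate 3. SLC8A1, a sodium-calcium exchanger, had 96.1, 76.2 and 110.1 CPM in DMSO and 55.1, 75.3 and 110.6 CPM in actD, a difference of -0.23 with overlap. PPP2R2B, a regulatory subunit of protein phosphatase 2A, had 78.2, 62.7 and 45.4 CPM in DMSO and 34.6, 33.3 and 48.2 CPM in actD, a difference of -0.68 with overlap. Of the 3 longest members, CNTNAP2 stood at -0.10 and PTPRD at -0.51, both with overlap, and DLG2 at -1.48 without. PTPRD, a receptor phosphatase, had 1.24, 0.555 and 6.12 CPM in actD and 3.15, 3.41 and 4.74 CPM in DMSO, so replicate 3 lay above DMSO where replicates 1 and 2 lay below, and its difference without replicate 3 was -2.08.

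**Figure D4:**
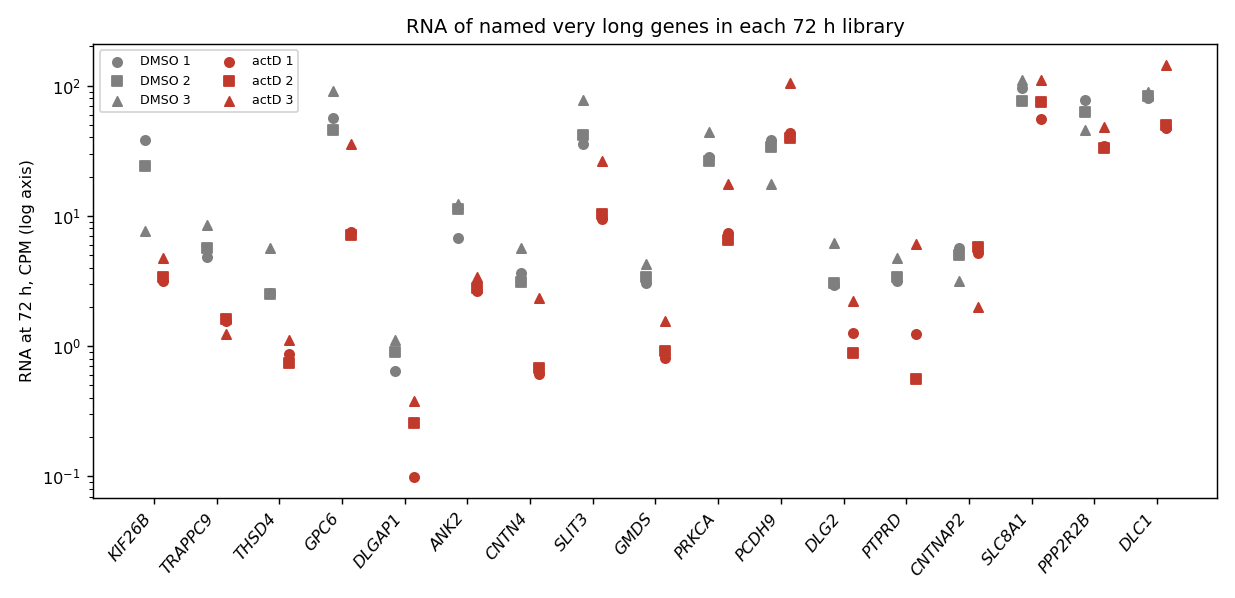
RNA of 17 named very long genes in each of the 6 libraries of 72 h, in CPM on a log axis, with 1 marker shape per replicate number. The first 10 genes lie lower in all 3 actD libraries than in any DMSO library and PCDH9 lies higher, whereas PTPRD and DLC1 have actD replicate 3 above DMSO and the other actD replicates below.

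At 6 h the differences were small. The members' median was -0.18, against 0.02 over all 22669 genes tested, and 113 of 154 lay below 0, or 73.4%, against 47% of all. The 3 actD libraries lay below the 3 DMSO libraries in 38 members, against 8.17% of all tested genes, and above in 4, against 7.66%. No member was called by edgeR, nor was any of all tested genes (0%). At an unadjusted p under 0.05, 28 members were lower, against 4.54% of all tested genes, and 4 were higher, against 3.67%. The 765 genes of 200 to 500 kb had somewhat larger shares on the lower side at 6 h. Of these, 27.8% were lower without overlap and 20.1% at that unadjusted p, beside 24.7% and 18.2% of the members. DESeq2 called 6 members, all lower, against 0.635% of all tested genes called lower. The median member stood at -0.17, -0.20 and -0.12 in the 3 actD libraries and between -0.06 and 0.10 in the DMSO libraries. Without DMSO replicate 3, the highest of these, the members' median was -0.11, against 0.03 over all tested genes, and 97 lay below 0 in place of 113. The distance between the members and the shortest class of span was then -0.10 in place of -0.21. At an unadjusted p under 0.05 in edgeR, 33 members were lower in that fit, against 4.55% of all tested genes.

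SNX29, a sorting nexin, had the largest 6 h difference and the least spread. It had 13.1, 13.3 and 13.3 CPM in DMSO and 6.97, 6.98 and 7.12 CPM in actD. The difference was -0.91 ± 0.12 with an edgeR adjusted p of 0.0956, the lowest of any member at 6 h. NPAS3, a transcription factor, had 3.58, 2.54 and 3.47 CPM in DMSO and 1.96, 1.27 and 1.99 CPM in actD, a difference of -0.88 ± 0.25. NAV2, a neuron navigator, stood at -0.72 ± 0.22 and KAZN, a protein of cell junctions, at -0.71 ± 0.19, both without overlap.

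The 4 members that were higher at 6 h without overlap had small differences. CNTN4 had 1.78, 2.10 and 2.35 CPM in DMSO and 3.34, 3.22 and 2.59 CPM in actD, a difference of 0.55 ± 0.21. PDE4B, a phosphodiesterase that degrades cyclic AMP, had 8.90, 8.44 and 9.63 CPM in DMSO and 13.2, 12.2 and 11.2 CPM in actD, a difference of 0.44 ± 0.13. The other 2 were KCNAB1, a potassium channel subunit, at 0.50 and GPC5, a glypican, at 0.22. CNTN4 and PDE4B were lower than DMSO without overlap at 72 h. The share of all tested genes with that change of direction was not computed.

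In most members the difference from vehicle was more negative at 72 h than at 6 h. The 72 h difference was below the 6 h difference in 124 members. In the edgeR test of the treatment-by-time interaction the members' median was -0.59, against -0.03 over all 24251 genes, and 126 of 154 lay below 0, against 52.1% of all. No member was called, against 0.0165% of all genes called in either direction. At an unadjusted p under 0.05, 39 were lower and none higher, against 5.18% and 2.84% of all genes. DESeq2 called 7 members, all lower, against 0.507% of all genes called lower. Without actD replicate 3 of 72 h, 10 members were called lower, against 0.119% of all genes, among them CNTN4 at -3.22 and GPC6 at -3.12. GPC6 had a 6 h difference of 0.02. Across the 154 members, Spearman's rho between the 6 h and 72 h differences was 0.33. Of the 38 members lower without overlap at 6 h, 22 were also so at 72 h, which is 57.9% of the 38 and 34.9% of the 63 at 72 h. Of all genes tested at both times, 2.3% were lower without overlap at both.

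At 2 weeks the libraries named actd had less RNA of most members than those named dmso. The median was -0.28, against -0.02 over all 21137 genes tested, and 121 of 154 lay below 0, or 78.6%, against 53.2% of all. The libraries did not overlap in 62 members on the lower side, against 7.83% of all tested genes, and in 7 on the higher side, against 7.86%. No member was called by edgeR, nor was any of all tested genes (0%), and at an unadjusted p under 0.05, 56 were lower, against 4.93% of all tested genes, and 5 were higher, against 4%. DESeq2 called 15 members, all lower, against 0.525% of all tested genes called lower. The 3 libraries named actd agreed, with the median member at -0.20, -0.33 and -0.25, and those named dmso at 0.03, -0.01 and 0.02. With library totals in place of TMM the median of all tested genes moved to -0.18 and that of the members to -0.43, so the distance between them stayed at -0.26.

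RYR2 had the largest 2-week difference. It had 17.1, 14.4 and 14.6 CPM in the libraries named dmso and 6.52, 6.90 and 6.96 CPM in those named actd, a difference of -1.18 ± 0.13 with an edgeR adjusted p of 0.09. KIF26B had 89.7, 89.4 and 103 CPM in those named dmso and 51.6, 41.1 and 45.6 CPM in those named actd, a difference of -1.03 ± 0.13 (edgeR adjusted p 0.106). The libraries of each name were close together in both genes. DLG2 stood at -0.98 ± 0.17 and MARCH1, a ubiquitin ligase, at -0.93 ± 0.17, both without overlap. On the higher side SPOCK1, a secreted proteoglycan, stood at 0.60, PDE1C at 0.48, LRRTM4 at 0.46 and SUMF1, the enzyme that activates sulfatases, at 0.41, none of them called.

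With the 2-week direction of the library names, members that were lower without overlap at all 3 times numbered 16, against 0.928% of all 19404 genes tested at the 3 times. With the direction of the titles there were 0, against 0.0155%. Among the 16 were CDKAL1, DOCK1, EXOC6B, FARS2, GMDS, GPHN, GRIP1, KIF26B, LRBA, PARD3, PRKD1, SBF2, SNX29, TRAPPC9 and TTC28. They include enzymes (GMDS, CDKAL1 and the mitochondrial FARS2), trafficking proteins (LRBA, EXOC6B, SNX29, TRAPPC9) and the polarity protein PARD3. By the library names, 88 members lay below 0 at all 3 times, against 18.8% of all genes, and 6 lay above 0 at all of them, against 18.6%: KCNAB1, LRRTM4, LSAMP, PCDH9, SEMA3A and SPAG16. By the titles, 11 lay below 0 at all 3 times, against 8.38% of all genes, and 3 above, against 12.5%. Of the 63 members lower without overlap at 72 h, 39 were so at 2 weeks by the library names, which is 61.9% of the 63 and 62.9% of the 62 at 2 weeks, and 2.06% of all genes tested at both times were lower without overlap at both. By the titles 1 of the 63 was so, against 0.341% of all genes. Spearman's rho across the members was 0.47 between the 72 h and 2-week differences and 0.28 between those of 6 h and 2 weeks, and both signs turn under the titles. Each time had its own libraries, with no shared controls.

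**Figure D5:**
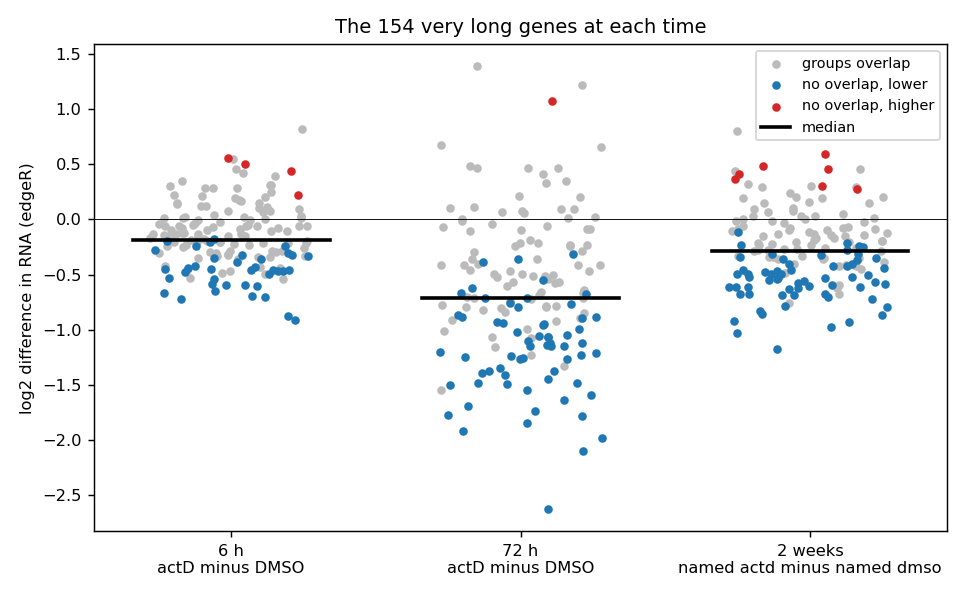
The log2 difference in RNA (edgeR) of each of the 154 very long genes at 6 h, 72 h and 2 weeks, with blue and red points for genes whose 3 treated libraries lie all below or all above the 3 vehicle libraries, and the median as a black bar. The medians are -0.18, -0.72 and -0.28, and the 2-week values follow the library names, which the titles contradict.

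A list of genes at common fragile sites held 14 of the members. At 72 h 12 of the 14 lay below 0, against 48.6% of all tested genes, with a median of -0.93. In the fit over 18 libraries 5 were called lower, against 3.61% of all its genes, among them DLG2, DPYD, SDK1 and WWOX. Of the other 140 members, 119 lay below 0 and 45 were called lower, with a median of -0.71. Without actD replicate 3 the medians were -1.16 in the 14 and -1.09 in the other 140. Whether the 14 differ from the other members was not tested. At 2 weeks the 14 had a median of -0.44 and the others -0.26, and at 6 h both stood at -0.18. MAGI2 at 0.02 and LSAMP at 0.11 were the fragile-site members above 0 at 72 h.

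The GC content of the transcripts ordered the members most at 6 h, as it did all genes past the count minimum. Spearman's rho between the GC content of the principal transcript and the difference was -0.35 at 6 h, -0.18 at 72 h and -0.23 at 2 weeks over the 154 members, as a description. Over all genes past the count minimum it was -0.30, 0.06 and -0.09, so the 6 h order was not particular to the members. Without actD replicate 3 the members' rho at 72 h was -0.13. Genes with another coding gene inside their span (16 members) had a 72 h median of -0.52, or -0.84 without actD replicate 3. Of the members, 10 overlap a coding gene on the same strand, where counting could split reads, and without them the 72 h median was -0.72. One of these, IQCJ-SCHIP1, is a readthrough gene, and its value is uncertain.

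Few footprints came from the very long genes. Of the 154 members, 3 passed the filter on low counts at 6 h, 12 at 72 h and 8 at 2 weeks, and 60, 50 and 44 were at 0 in all 6 libraries of the time. The values below therefore concern the members with the most footprints and not the whole group. A gene could pass that filter through its DMSO libraries alone, and such a gene would tend to come out lower in actD. How many members passed in that way was not counted, so the directions of the tested members are given as a description. With a minimum of 1 count in 2 libraries, 60 of 93 members lay below 0 at 72 h, with a median of -0.47 against 0.34 over all genes. Over all members, the share of coding footprint counts at 72 h was 0.465%, 0.387% and 0.526% in DMSO and 0.139%, 0.157% and 0.329% in actD. All 3 actD libraries lay below all DMSO libraries, with replicate 3 again highest. The mean share was 0.459% ± 0.070 in DMSO and 0.208% ± 0.105 in actD (SD, n = 3). At 6 h the mean share was 0.468% ± 0.064 in DMSO and 0.359% ± 0.020 in actD, and at 2 weeks 0.851% ± 0.176 and 0.596% ± 0.118.

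Of the 12 members tested in footprints at 72 h, 9 lay below 0, against 47.2% of the 2426 genes tested, with a median of -0.91 against 0.07 over all. None was called by edgeR, against 3.79% of all tested genes, and 5 were lower at an unadjusted p under 0.05, against 13.1%. DESeq2 called none of the 12, against 2.02% of all tested genes called lower. The actD libraries lay below DMSO without overlap in 7 of the 12, against 16.2% of all tested genes. EXOC4 had 32, 15 and 7 footprint counts in DMSO and 8, 4 and 26 in actD, from libraries of unequal depth, or 72.4, 50.3 and 87.1 CPM against 11.9, 10.9 and 30.9 CPM. The difference was -1.82 ± 0.48 (edgeR adjusted p 0.0714), beside -1.40 in RNA. PARD3 had 52.0, 46.9 and 49.7 CPM in DMSO and 11.9, 10.9 and 29.7 CPM in actD, a difference of -1.41 ± 0.44, beside -1.26 in RNA. Its counts were low too. In the third DMSO library, where 7 counts of EXOC4 made 87.1 CPM, the 49.7 CPM of PARD3 rest on fewer than 7 counts. LPP, a protein of focal adhesions, stood at -2.38 ± 0.73 on 1 to 12 counts per library, and GSE1 at -1.09 ± 0.31. Without actD replicate 3, 17 members were tested and 4 were called lower (LPP, EXOC4, PARD3, NAV2), against 5.98% of all tested genes.

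The highest footprint differences at 72 h were those of ADGRL2 at 0.48, SLC8A1 at 0.17, DLC1 at 0.16 and SLIT3 at -0.44, all with overlap. SLIT3, with -1.74 in RNA, had 18.1, 20.1 and 74.6 CPM of footprints in DMSO and 13.4, 8.16 and 34.5 CPM in actD, from 3 to 29 counts per library. At 6 h the 3 tested members were EXOC4 at -1.20, PARD3 at -0.56 and TENM3 at -0.18, against 43.2% of all tested genes below 0, and none was called, nor was any gene tested (0%). At 2 weeks 7 of 8 lay below 0, against 48.7% of all tested genes, and none was called, nor was any gene tested (0%). There NAV2 stood at -0.94, with 26.3, 27.0 and 22.6 CPM in DMSO and 14.8, 9.12 and 16.0 CPM in actD, and EXOC4 at -0.79. In the 2-week footprint libraries, title and library name give the same treatment.

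Just inside the span limit were KCNAB1 at 501 kb and DNAH14 at 503 kb, with 72 h differences of 0.03 and -0.24. Just outside were DIAPH3 at 498 kb and CACNA2D1 at 497 kb, with -0.90 and -0.55. Just over the count minimum were CADPS2 and TENM2, with -1.33 and -0.70, and just under it GALNTL6 and ZFPM2, with 1.30 and -0.93.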

How the data were processed

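The authors deposited 1 table of estimated counts (expected counts) per gene for each assay and time, with 1 column per library. The submitters' processing notes name HISAT2, StringTie and hg38, with no role or version. Whether reads in introns were counted, how a read was converted to counts and any use of strand are not given in the sources used here. The values were whole numbers, and all 36 value columns were used. Without version numbers, 99.4% of the 58219 RNA identifiers matched GENCODE release 29, which gave symbols and spans. Members and gene lists were chosen with earlier results of these data known.

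Counts were tested with edgeR 4.0.16 in R 4.3.3 (filterByExpr, TMM, quasi-likelihood test, two-sided, Benjamini-Hochberg over all genes tested, adjusted p under 0.05). Log2 differences come from these fits on the authors' counts, and CPM were computed from them with TMM. Standard errors follow from the log2 difference and the F statistic. The named genes are those called, the members with the most negative and most positive differences whose libraries did not overlap (up to 10 and 6 at 72 h, where 1 member lay higher, and 4 and 4 at 6 h and 2 weeks), the 3 longest, the 3 with the highest counts, 4 and 4 of the tested footprints at 72 h, and the 2 on either side of each limit. Others were named as examples of a role list after their values were seen. An exact permutation test of 3 libraries against 3 cannot go below 0.1. Alternatives were library totals, a looser filter, DESeq2 1.42.0, a replicate block, 1 fit over 18 libraries, each library left out, and other limits for members. The fits were tested on simulated data. A few genes of the lists are not reported here.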

Additional observations from a re-analysis of the deposited data

Results flagged for a closer look

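CNTN4 and PDE4B had opposite directions at the 2 times with consistent labels. Each was higher in all 3 actD libraries than in all 3 DMSO libraries at 6 h, and lower in all 3 at 72 h. For CNTN4 the differences were 0.55 and -1.78, and the treatment-by-time interaction was -2.34 ± 0.64 (edgeR p 0.00324, adjusted p 0.437). For PDE4B they were 0.44 and -0.94, and the interaction was -1.40 ± 0.41 (edgeR p 0.00475, adjusted p 0.444). Neither interaction passed the adjusted threshold. Both genes were picked by these same values, so the unadjusted p-values are no support for a change of direction. The share of all tested genes with this pattern was not computed, so whether it is particular to these members is not known.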

How the results depend on the processing

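In the 3 RNA comparisons and the interaction the members' median difference, taken relative to that of all tested genes, stayed below 0 in every alternative run under the library names. At 72 h it was -0.74, and -1.10 to -0.59 with each library left out in turn. At 6 h it was -0.20 (-0.22 to -0.14), at 2 weeks -0.26 (-0.29 to -0.22), in the interaction -0.56 (-0.94 to -0.43), and in footprints -0.67 (-0.85 to -0.23), -0.99 (-1.38 to -0.83) and -0.39 (-0.65 to -0.17). With members of at least 750 kb it was -0.36 at 2 weeks. With the treatments as the titles give them it was 0.26 at 2 weeks, and the distance between the longest and shortest class of span was 0.32 in place of -0.32. That distance was -0.81 at 72 h (-1.21 to -0.63), -0.21 at 6 h (-0.28 to -0.10) and -0.38 to -0.27 at 2 weeks with libraries left out.

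The count of members called by edgeR on the libraries of 1 time was 0 in each comparison with all libraries and differed between tools. DESeq2 called 6 at 6 h, 30 at 72 h, 15 at 2 weeks and 7 in the interaction. The fit over 18 libraries called 50 at 72 h and 0 at 6 h and 2 weeks, and library totals called 1 at 2 weeks. With libraries left out, 0 to 10 members were called in the interaction and 0 to 4 in footprints at 72 h, both highest without actD replicate 3, and 0 in the others. Under the replicate block 0 members were called in every comparison, with a 72 h median relative to all genes of -0.82. The replicate numbers share no stated culture, and the correlations of same-numbered RNA libraries at 72 h, 0.074, 0.25 and 0.16, did not all pass the limit of 0.1, although each library matched its own number best. Among the named genes these 72 h values turned sign: in RNA CNTNAP2 (-0.37 to 0.24) and DLC1 (-0.81 to 0.20) with libraries left out, and in footprints DLC1 (-0.62 to 0.52, and -0.26 under the block), SLC8A1 (-0.42 to 0.48, and -0.14 under the block) and SLIT3 (-1.08 to 0.093). Alternatives were run one by one for the genes that the naming rule gives in the comparison that named them, leaving out those beside a limit, and among these no other sign turned, apart from the 2-week values under the titles. Over all 154 members at least 1 of 11 alternatives turned the sign of 44 at 6 h, 35 at 72 h and 32 at 2 weeks under the library names. The differences that turned were up to 0.42, 0.92 and 0.36 in size. At 72 h, 18 of those that turned had been below 0 and 17 above, although 131 members lay below 0. In the interaction 38 turned, with differences of up to 1.01 in size. The cause of these changes was not tested.

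Depth limited the footprints, where edgeR's filterByExpr kept at most 12 members with all libraries. With a minimum of 1 count in 2 libraries, 70, 93 and 87 members were tested at 6 h, 72 h and 2 weeks, and at 72 h 60 of the 93 lay below 0, with a median of -0.47 against 0.34 over all genes. Isoform use, nascent RNA and RNA stability were not measured.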
